A study of Homo sapiens with 6 samples.

Results

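The 84 genes described here encode the proteins of the cytosolic ribosome, the particle that makes protein from mRNA outside the mitochondria. They are the protein-coding genes of the deposited table whose symbol starts with RPL or RPS and a number, or is RPLP0, RPLP1, RPLP2 or RPSA, without the RPS6 kinases and RPS19BP1, and they were 84 of 28563 genes listed. Of these, 32 belong to the small subunit and 52 to the large subunit, 77 are core genes and 7 are paralogs with an L or L1 at the end of their symbol. RNA was taken from cells labelled HepG2, an established human liver cancer cell line, after 24 h with polydatin (PD), a glucoside of resveratrol found in plants, at a labelled dose of 336 µM, or with DMSO alone as the control. Each treatment had 3 dishes and 1 library per dish, and the plates had been assigned to the treatments at random. All libraries came from 1 cell line, and p-values here measure the spread between these dishes. Levels are fragments on a gene scaled by its exon length and by the library total (FPKM), so that a change in the number of cells and a change in RNA per cell cannot be told apart.

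Each ribosome holds a single copy of nearly every ribosomal protein, with several copies of the stalk proteins RPLP1 and RPLP2, and surplus copies made outside the particle are known to be degraded. Most of these mRNAs start with a C followed by a run of pyrimidines, the 5′ terminal oligopyrimidine (TOP) motif, through which mTORC1 and the RNA-binding protein LARP1 set how much they are translated. Several of the genes also carry small nucleolar RNAs (snoRNAs) in their introns, and free RPL5 and RPL11 are known to bind MDM2, the inhibitor of p53.

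The libraries held 16763318 to 17274927 fragments with DMSO and 16308476 to 18071632 with PD, worked back from the FPKM. Ribosomal protein genes took 4.10% to 4.33% of the fragments with DMSO and 4.16% to 4.19% with PD. DMSO replicate 2 had the lowest share of the 6 libraries. Most hepatocyte markers were near 0 in these cells, and whether the cells match their label was not tested. Of 20 hepatocyte markers, 10 had a row in the table and 2 reached 1 FPKM in any library. These were CPS1, the first enzyme of the urea cycle, with 225 ± 3.45 FPKM with DMSO and 109 ± 2.60 FPKM with PD (SD, n = 3), and RBP4, with 0.391 ± 0.0803 FPKM with DMSO and 1.299 ± 0.376 FPKM with PD. APOA1, SERPINA1, FGA, FGG, TF, AMBP and HNF4A had means of 0.134 FPKM or less in both groups. Summed over the hepatocyte list, the libraries held 222 to 229 FPKM with DMSO and 107 to 113 FPKM with PD, and the part of this change in the results on ribosomal protein genes was not tested. Of the markers of other cell types, COL1A1 had 3.46 ± 0.358 FPKM with DMSO and 3.45 ± 0.199 FPKM with PD, and no endothelial or blood marker reached 1 FPKM in any library.

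The sequences around the annotated starts show the motif by which these genes are known. RefSeq (GRCh38.p14) gave a start for 67 of the 84 genes, and 11 of them had several starts. For a gene with several starts, the window shown is that of the start with the longest run. Runs and motifs were counted if any start of a gene had them, in these genes and in all genes. Windows from 60 bases before the start to the first 20 transcribed bases are given for genes that fell with PD (RPL3, RPL26, RPL22L1, RPL36A), for genes that rose (RPL28, RPS27, RPS12, RPLP1) and for paralogs without such a run near the start (RPS27L, RPL26L1, RPL7L1). Capitals mark the run of at least 5 pyrimidines that begins within 5 bases of the annotated start.
RPL3 (chr22:39319604-39319683, minus strand): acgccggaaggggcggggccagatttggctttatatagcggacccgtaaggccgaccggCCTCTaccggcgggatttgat
RPL26 (chr17:8383174-8383253, minus strand): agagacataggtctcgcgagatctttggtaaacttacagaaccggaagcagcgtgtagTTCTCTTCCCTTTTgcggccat
RPL22L1 (chr3:170870176-170870255, minus strand): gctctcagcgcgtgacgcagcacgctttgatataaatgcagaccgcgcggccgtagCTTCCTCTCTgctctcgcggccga
RPL36A (chrX:101390951-101391030, plus strand): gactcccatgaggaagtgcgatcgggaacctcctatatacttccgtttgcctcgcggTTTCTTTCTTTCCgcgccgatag
RPL28 (chr19:55385872-55385951, plus strand): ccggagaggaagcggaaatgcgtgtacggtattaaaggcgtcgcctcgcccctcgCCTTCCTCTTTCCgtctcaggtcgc
RPS27 (chr1:153990702-153990781, plus strand): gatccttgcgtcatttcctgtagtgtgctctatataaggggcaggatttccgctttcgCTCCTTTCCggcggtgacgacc
RPS12 (chr6:132814509-132814588, plus strand): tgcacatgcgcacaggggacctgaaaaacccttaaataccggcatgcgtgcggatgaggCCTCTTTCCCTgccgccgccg
RPLP1 (chr15:69452758-69452837, plus strand): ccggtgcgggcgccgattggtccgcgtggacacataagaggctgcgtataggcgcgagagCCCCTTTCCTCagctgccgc
RPS27L (chr15:63157458-63157537, minus strand): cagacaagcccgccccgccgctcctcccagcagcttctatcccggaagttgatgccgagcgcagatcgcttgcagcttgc
RPL26L1 (chr5:172958669-172958748, plus strand): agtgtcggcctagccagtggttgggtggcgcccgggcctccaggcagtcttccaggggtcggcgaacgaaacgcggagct
RPL7L1 (chr6:42879556-42879635, plus strand): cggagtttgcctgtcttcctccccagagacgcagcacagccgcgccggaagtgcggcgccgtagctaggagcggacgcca
Genes of both directions carried the run, whereas the windows of the last 3 paralogs held none at the start. Over all 67 genes with an annotated start, 47 (70.1%) had a run that began within 5 bases of the start, against 28.9% of the 27305 genes with a start in the same table. Counted instead as a start base that lies inside a run of at least 5 pyrimidines, a rule added after the data had been seen, the shares were 76.1% of ribosomal protein genes and 11.9% of all genes. By this second rule 9 of the 11 genes with a start that rose and 21 of the 27 that fell had the run, and by the first rule 10 of 11 and 16 of 27. For the log2 fold change, genes with the start base inside a run had a median of -0.082 (n = 51) and those without had -0.090 (n = 16). The letters CCGGAAG, the core of a site for ETS factors, were found on either strand between 250 bases before and 50 after the start in 35.8% of the ribosomal protein genes and in 12.2% of all genes. The TATAAA motif was found in 8.96% and 14.0%. Of the 11 genes with a start that rose, 2 held CCGGAAG, and of the 27 that fell, 11 did.

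PD moved the ribosomal protein mRNAs by small amounts and in both directions, with 25 of the 31 falls in large subunit genes. Large subunit genes were 51 of the 83 genes tested. Expression was compared by limma on log2(FPKM + 1) over the 14400 genes whose mean reached 0.5 FPKM, with p-values adjusted over all of them by the Benjamini-Hochberg method and a call at an adjusted p of at most 0.05. In this test 83 of the 84 genes were included, and 45 were called, which is 54.2% of them against 58.1% of all genes tested. The called genes comprised 14 that were higher with PD (16.9% of the members, against 31.9% of all genes) and 31 that were lower (37.3%, against 26.2%). With FPKM rescaled to the same total without these genes, the split was 10 higher and 40 lower. That scaling also moved the median log2 fold change over all genes, from 0.012 to -0.037. The shares of all genes called higher and lower under it are not given here. No ribosomal protein gene passed a change of 2-fold on the log2(FPKM + 1) scale, which 3.61% of all genes did. RPL26 had a ratio of group means of 0.452 on the FPKM scale, and it was the 1 gene past 2-fold with a pseudocount of 0.1 (log2 fold change -1.10).

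The counts are given by subunit. In the small subunit, 8 of 32 genes were higher with PD, 6 were lower and 18 were not called, and the median of their log2 fold changes was 0.026. In the large subunit, 6 of the 51 genes tested were higher, 25 were lower and 20 were not called, with a median of -0.11. The median over all genes tested was 0.012, and 31.9% of them were higher and 26.2% lower. Without the paralogs the counts were 7 higher and 6 lower of 31 small subunit genes and 5 higher and 22 lower of 46 large subunit genes. The small subunit counts were less stable, with 7 higher and 3 lower without DMSO replicate 3, 8 higher and 3 lower without PD replicate 1, 7 higher and 3 lower without a filter on FPKM, and 5 higher and 10 lower with equal totals without these genes. The sign of the small subunit median turned under other scalings, which moved it to between -0.037 and -0.0093. The small subunit median stayed above that of the large subunit by 0.13 to 0.15 in all 15 settings run. A scaling moves both medians together, and a fit with the replicate number leaves the estimates as they are, so these settings could hardly change that difference. Leaving out 1 library could change it, and it then ran from 0.13 (without DMSO replicate 3) to 0.15 (without DMSO replicate 2).

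The lowest PD library was above the highest DMSO library for 20 of the 83 genes (35.6% of all genes tested), and the highest PD library was below the lowest DMSO library for 34 (29.9% of all genes). In the other 29 genes the groups overlapped, and 65.4% of all genes tested had groups that did not. The 6 small subunit genes called lower included RPS27A, RPS7, RPS14, RPS15 and RPS16. Of the 38 genes tested and not called, 30 had a 95% interval of the log2 fold change that lay wholly between -0.25 and 0.25. RPS23, RPL23A, RPL30, RPS29 and RPS10 were among those with wider intervals, and that of RPS23 ran from -0.64 to 0.16.

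**Figure D1:**
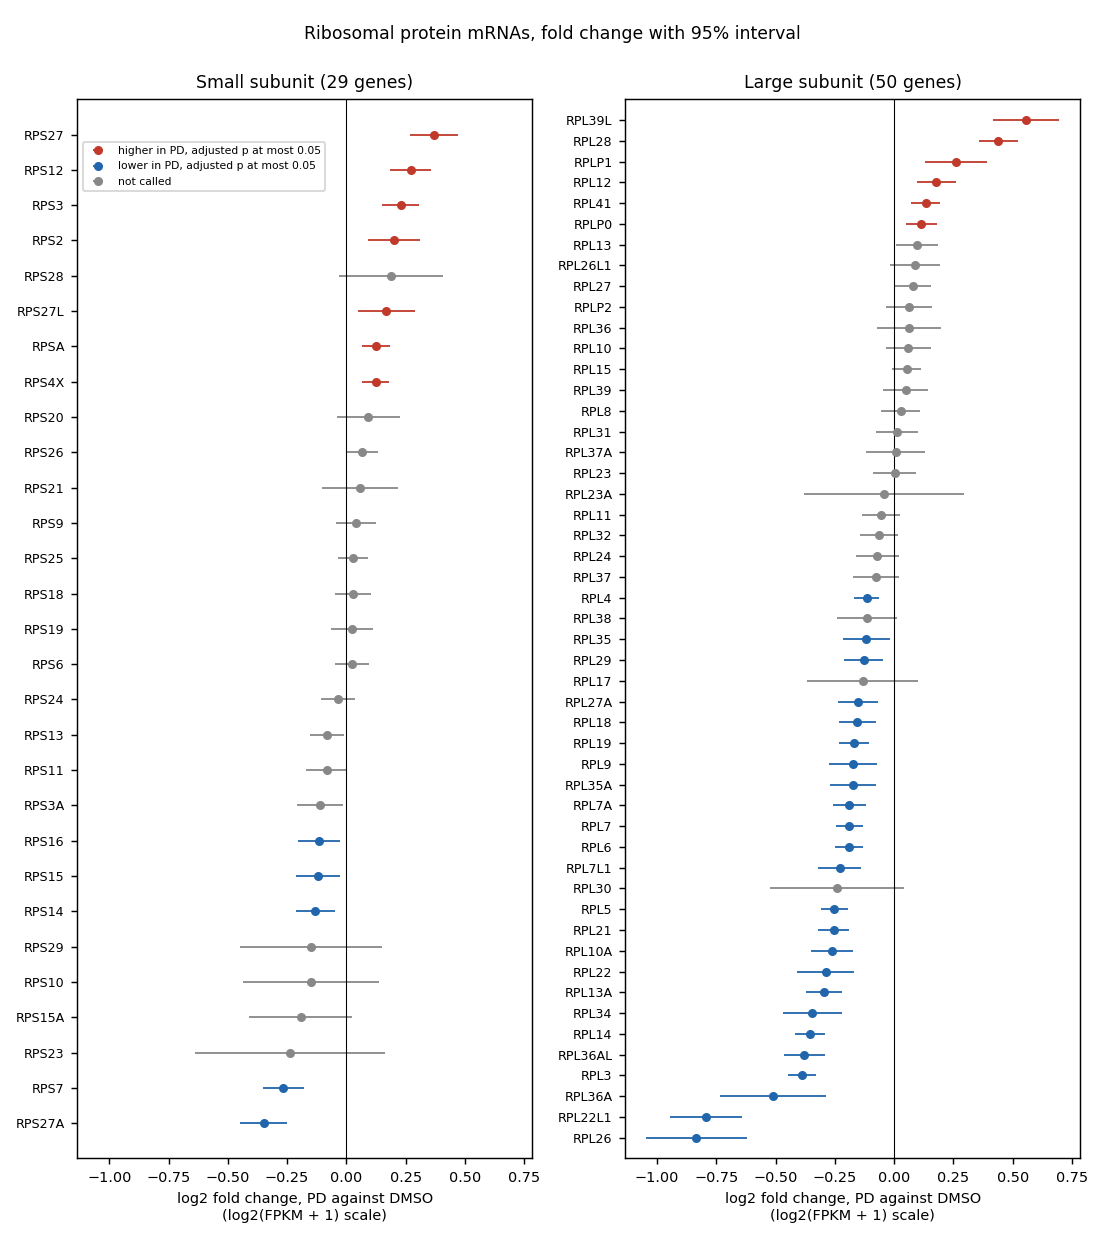
Log2 fold change (x axis, log2(FPKM + 1) scale, PD against DMSO) of 79 of the 83 ribosomal protein genes tested (y axis, small subunit on the left and large subunit on the right), with points for the estimates, bars for the 95% intervals and colours for the calls. Of the large subunit genes shown, 24 are called lower and 6 higher, and of the small subunit genes shown 5 are called lower and 7 higher.

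On the FPKM scale the sums over each subunit differed in opposite directions, of which only the lower large subunit sum separated the groups under the 3 other scalings. Summed FPKM of the small subunit was 5967, 5664 and 6053 in the DMSO libraries and 6181, 6209 and 6223 in the PD libraries. Summed FPKM of the large subunit was 8850, 8537 and 8981 with DMSO and 8383, 8470.4 and 8368 with PD. The groups did not overlap in either sum, with PD above DMSO for the small subunit and below it for the large subunit, although the small subunit sums differed by less than 2 SD of the DMSO libraries. The ratio of small to large subunit FPKM varied less between libraries, at 0.674, 0.663 and 0.674 with DMSO and 0.737, 0.733 and 0.744 with PD, and its group means differed by 1.10-fold. Because sums are dominated by abundant mRNAs, geometric means over the members were also compared. The geometric mean of the small subunit was 88.5 ± 3.78 FPKM with DMSO and 88.3 ± 0.954 FPKM with PD (SD, n = 3), and the groups overlapped. For the large subunit it was 94.9 ± 3.21 FPKM with DMSO and 86.7 ± 0.488 FPKM with PD, and they did not. Summed over both subunits, ribosomal protein mRNA was 14684 ± 432 FPKM with DMSO and 14611 ± 60.3 FPKM with PD, with overlapping groups. With equal totals without these genes, the small subunit sums were 6092, 5814 and 6167 with DMSO and 6081, 6042 and 6088 with PD and overlapped, as they also did with median-of-ratios and upper quartile scaling. The sum over both subunits overlapped under those last 2 scalings as well, but with equal totals it was 15127, 14578 and 15315 with DMSO and 14327, 14286 and 14274 with PD, without overlap. DMSO replicate 2 had the lowest value of the 3 DMSO libraries in each of these sums.

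**Figure D2:**
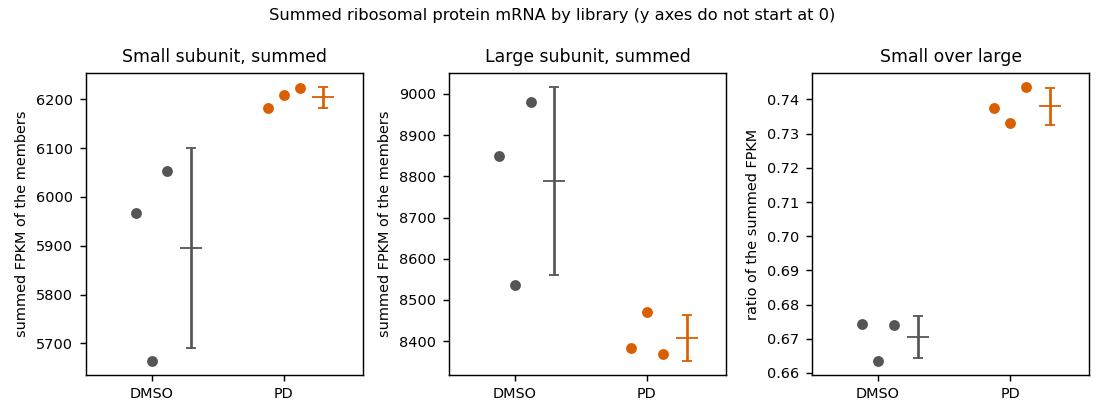
Summed FPKM of the small subunit, summed FPKM of the large subunit and their ratio (y axes, which do not start at 0) in each DMSO and PD library (x axis), with points for libraries and bars for the mean and SD. The small subunit sum lies between 6181 and 6223 in the PD libraries, and the ratio lies between 0.733 and 0.744 with PD and between 0.663 and 0.674 with DMSO.

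Large subunit genes held the 5 largest falls. RPL3 (chr22:39312882-39320389 in hg38, minus strand) encodes a protein that reaches the catalytic centre of the large subunit and was one of the more abundant mRNAs, with 264, 259 and 261 FPKM in the DMSO libraries and 197, 204 and 198 FPKM in the PD libraries. All PD values lay well below all DMSO values, and RPL3 fell by 0.39 on the log2 scale (SE 0.026, adjusted p = 2.02e-05). RPL26 (chr17:8377516-8383213, minus strand), which has a known extra role in binding p53 mRNA, was listed at 4.38, 3.52 and 4.28 FPKM with DMSO and 1.90, 1.62 and 1.98 FPKM with PD (log2 fold change -0.83, SE 0.090, adjusted p = 0.000193). RPL36A was listed at 1.88, 1.87 and 1.52 FPKM and 0.782, 1.04 and 0.990 FPKM (log2 fold change -0.51, SE 0.095, adjusted p = 0.00283). Both of these genes were low, RPL26 with as few as 70 and RPL36A with as few as 56 fragments in a library, and much of the RNA that resembles them was counted on pseudogenes, whose addition moved the limma voom estimate from -0.91 to -0.17 for RPL36A and from -1.14 to -0.76 for RPL26. The other 2 of the 5 were the paralogs RPL22L1 and RPL36AL.

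RPL14 had 57.7, 57.0 and 57.5 FPKM with DMSO and 44.8, 44.9 and 44.4 FPKM with PD (log2 fold change -0.35, SE 0.027, adjusted p = 3.66e-05). Its replicates were close together, and the groups were far apart relative to that spread. RPL13A, known for an added role in silencing of inflammatory mRNAs, had 297, 282 and 298 FPKM and 236, 234 and 245 FPKM (log2 fold change -0.30, SE 0.032, adjusted p = 0.00021). RPL34 had 35.7, 35.1 and 40.1 FPKM and 29.4, 28.8 and 28.4 FPKM (log2 fold change -0.35, SE 0.053, adjusted p = 0.00109). In all 3 genes each PD library was below each DMSO library. RPL22, RPL10A, RPL21, RPL6, RPL7, RPL7A, RPL35A, RPL9, RPL19, RPL18, RPL27A, RPL29, RPL35 and RPL4 were also called lower, with log2 fold changes between -0.29 for RPL22 and -0.11 for RPL4.

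The abundant large subunit mRNAs did not move as a block. By mean FPKM the 3 highest were RPLP0, RPL7A and RPL35. RPL7A had 564, 553 and 586 FPKM with DMSO and 492, 496 and 505 FPKM with PD, without overlap (log2 fold change -0.19, SE 0.029, adjusted p = 0.00108). RPL35, which sits at the exit of the peptide tunnel, had 547, 511 and 568 FPKM and 507, 506 and 484 FPKM, with the second DMSO library only just above the highest PD library (log2 fold change -0.12, SE 0.042, adjusted p = 0.0453), and its call was lost without DMSO replicate 1 or 3 or without any 1 of the PD libraries (adjusted p from 0.0730 to 0.141). RPL8 had 435, 440.4 and 459 FPKM and 449.5, 471 and 440.1 FPKM, which overlapped (log2 fold change 0.028, SE 0.035, adjusted p = 0.516). RPL41, the smallest ribosomal protein, had 470.0, 477 and 492 FPKM and 525, 531 and 521 FPKM and was higher with PD (log2 fold change 0.13, SE 0.026, adjusted p = 0.00365).

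RPL5 and RPL11, which join the ribosome together with the 5S rRNA, had different outcomes in the test. RPL5 had 270.0, 264 and 269.8 FPKM with DMSO and 223, 227 and 225 FPKM with PD, well apart (log2 fold change -0.25, SE 0.024, adjusted p = 0.000105). RPL11 had 264, 245 and 258 FPKM and 242, 249.9 and 247 FPKM, which overlapped (log2 fold change -0.055, SE 0.034, adjusted p = 0.206), with a 95% interval of -0.13 to 0.025. RPL11 was called lower under upper quartile scaling (adjusted p = 0.0404) and with equal totals without the ribosomal protein genes (adjusted p = 0.0142). Whether the 2 genes differed from each other was not tested.

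The rises of the large subunit were few. Of the 3 genes of the stalk, the flexible arm that recruits elongation factors, RPLP1 was called higher in every setting run, RPLP0 in the main test but not under other scalings, and RPLP2 was not called in the main test. RPLP1, an acidic stalk protein, had 231, 203 and 235 FPKM with DMSO and 267, 271 and 261 FPKM with PD (log2 fold change 0.26, SE 0.055, adjusted p = 0.00526). RPLP2, its partner, had 148, 139 and 153 FPKM and 155, 155 and 149.6 FPKM, which overlapped, and was not called (log2 fold change 0.063, SE 0.041, adjusted p = 0.225). RPLP0, the base of the stalk, had 532, 541 and 560.2 FPKM and 589, 597 and 582 FPKM (log2 fold change 0.12, SE 0.028, adjusted p = 0.00925). Thus the rise of RPLP0 was small next to its level, and it was not called under any of the 3 other scalings (adjusted p from 0.0665 to 0.123). RPL12, which binds rRNA next to RPLP0, had 342, 316 and 325 FPKM and 362, 376 and 373 FPKM without overlap (log2 fold change 0.18, SE 0.035, adjusted p = 0.00359). RPL28 rose most among the core genes, from 37.7, 38.1 and 40.1 FPKM to 52.7, 53.7 and 51.9 FPKM (log2 fold change 0.44, SE 0.035, adjusted p = 4.41e-05).

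Small subunit genes with rises included RPS27, RPS12, RPS3 and RPS2. RPS27, a zinc finger protein, had 296, 268 and 285 FPKM with DMSO and 369.6, 352 and 375 FPKM with PD (log2 fold change 0.37, SE 0.043, adjusted p = 0.000282). RPS12 had 356, 338 and 372 FPKM and 434, 429 and 424 FPKM (log2 fold change 0.27, SE 0.037, adjusted p = 0.00063). In both genes every PD library was above every DMSO library, by more than the range within either group. RPS3, at the entry of the mRNA channel, had 156, 150.5 and 163 FPKM and 184, 184 and 183 FPKM (log2 fold change 0.23, SE 0.033, adjusted p = 0.000825). RPS2, also at the mRNA entry, was the most abundant ribosomal protein mRNA, with 1004, 899 and 988 FPKM and 1069, 1133 and 1119.9 FPKM (log2 fold change 0.20, SE 0.046, adjusted p = 0.0076). The second DMSO library was the lowest for RPS2, RPS12 and RPS27, and without it the 14 calls among small subunit genes were 7 higher and 7 lower.

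**Figure D3:**
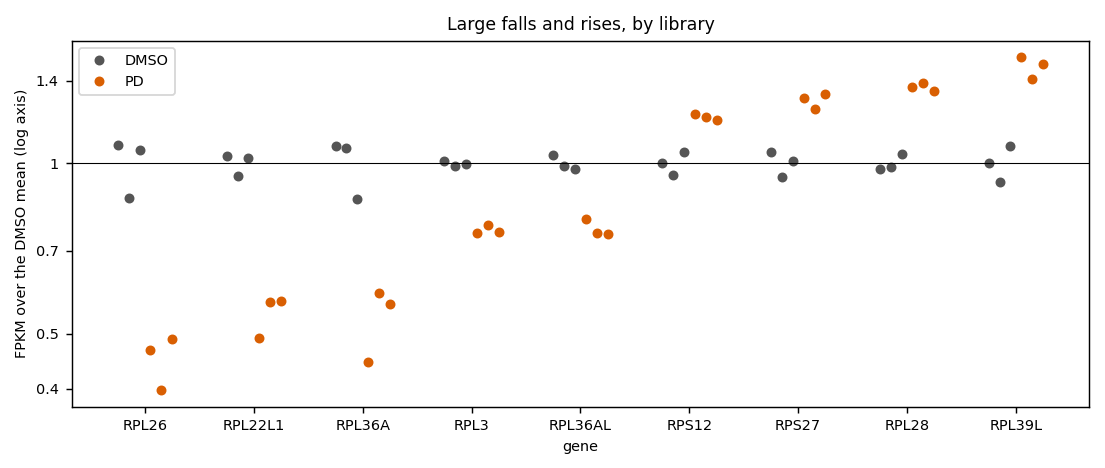
FPKM divided by the mean of the DMSO libraries (y axis, log scale) in each library for the 5 ribosomal protein genes with the largest falls and 4 with large rises (x axis, ordered by fold change), with grey points for DMSO and orange points for PD. In all 9 genes the PD points lie on 1 side of all DMSO points.

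RPSA, which also has a second life as a laminin-binding protein, had 212, 214 and 217 FPKM with DMSO and 234, 237 and 231 FPKM with PD (log2 fold change 0.12, SE 0.024, adjusted p = 0.00368). RPS4X had 286, 285 and 294 FPKM and 313, 315 and 316 FPKM (log2 fold change 0.12, SE 0.024, adjusted p = 0.00361). Both were higher with PD in the main test and were not called with equal totals without the ribosomal protein genes. RPS6, the substrate that gives S6 kinase its name, had 269, 263 and 269.5 FPKM and 275, 278 and 262 FPKM, which overlapped (log2 fold change 0.023, SE 0.030, adjusted p = 0.553). RPS19, which is often mutated in Diamond-Blackfan anemia, had 158, 153 and 166 FPKM and 167, 159.8 and 159 FPKM (log2 fold change 0.024, SE 0.037, adjusted p = 0.603). RPS18 had 419, 396 and 424 FPKM and 429, 414 and 419 FPKM (log2 fold change 0.027, SE 0.033, adjusted p = 0.51). The groups overlapped in the last 3 genes, with 95% intervals of -0.049 to 0.094 for RPS6, -0.064 to 0.11 for RPS19 and -0.050 to 0.10 for RPS18, and the signs of these 3 estimates turned with the scaling.

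The largest fall of the small subunit was that of RPS27A, which is made as a fusion with ubiquitin and so supplies both proteins. It had 199.5, 188 and 205 FPKM with DMSO and 161, 151 and 152 FPKM with PD (log2 fold change -0.35, SE 0.042, adjusted p = 0.000323). RPS7, which can bind MDM2, had 103, 95.8 and 104 FPKM and 82.9, 84.1 and 84.1 FPKM (log2 fold change -0.27, SE 0.037, adjusted p = 0.00064). RPS14, the gene of the 5q deletion anemia, had 119, 118 and 126 FPKM and 108, 112 and 111 FPKM (log2 fold change -0.13, SE 0.035, adjusted p = 0.0141). In RPS27A, RPS7 and RPS14 the groups did not overlap. RPS15 and RPS16 had smaller differences, with adjusted p of 0.0332 and 0.0319. Leaving out 1 library ended the call of 6 of the 45 genes called, among them RPS15, RPS16, RPL29, RPL35 and RPS27L, and 35 of the 45 were called in the same direction in every setting run.

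The symbol rule leaves out FAU and RACK1, whose products are also ribosomal proteins, and neither was called. FAU, whose product is cut into RPS30 and a ubiquitin-like protein, had 25.1 ± 3.48 FPKM with DMSO and 23.0 ± 1.01 FPKM with PD (log2 fold change -0.11, SE 0.095, adjusted p = 0.333). RACK1, a signalling scaffold on the small subunit, had 153 ± 4.18 FPKM with DMSO and 148 ± 2.41 FPKM with PD (log2 fold change -0.043, SE 0.030, adjusted p = 0.254). The groups overlapped in both, and neither had an unadjusted p under 0.05 by limma or a call by voom.

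Of the 6 paralogs tested, 2 were higher with PD, 3 were lower and 1 was not called. RPL39L (chr3:187120948-187180908, hg38), a paralog of the tunnel protein RPL39 known for its use in male germ cells and in cancers, had 42.2, 38.9 and 45.2 FPKM with DMSO and 64.8, 59.3 and 63.1 FPKM with PD (log2 fold change 0.56, SE 0.059, adjusted p = 0.000173), the largest rise of all 83 genes tested. RPL39 itself had 117, 108 and 117 FPKM and 122, 115 and 116 FPKM, which overlapped (log2 fold change 0.048, SE 0.041, adjusted p = 0.35). The ratio of RPL39L to RPL39 was 0.361, 0.360 and 0.387 with DMSO and 0.530, 0.513 and 0.546 with PD, a difference of 0.52 on the log2 scale. The coding sequences of these genes, from GENCODE release 44, are shown because reads from one could be counted on the other, and capitals mark the bases that differ.
RPL39: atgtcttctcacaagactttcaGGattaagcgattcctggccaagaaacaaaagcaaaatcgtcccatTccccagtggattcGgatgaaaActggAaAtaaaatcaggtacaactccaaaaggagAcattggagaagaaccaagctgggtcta
RPL39L: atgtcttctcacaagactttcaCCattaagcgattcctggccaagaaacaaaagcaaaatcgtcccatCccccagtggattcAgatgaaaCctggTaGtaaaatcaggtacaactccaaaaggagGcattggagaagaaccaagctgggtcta
They are 94.8% identical, with 8 of 153 positions that differ and an identical stretch of 44 bases at the longest.

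RPL22L1, the paralog of RPL22, had 12.6, 11.6 and 12.5 FPKM with DMSO and 6.02, 6.97 and 6.99 FPKM with PD (log2 fold change -0.79, SE 0.064, adjusted p = 4.97e-05). RPL22, which is not essential for the ribosome and is known to repress its paralog, had 84.4, 77.4 and 77.2 FPKM and 61.3, 67.2 and 66.7 FPKM (log2 fold change -0.29, SE 0.051, adjusted p = 0.00218). Both genes were lower with PD without overlap, and the paralog fell further, so that their ratio was 0.149, 0.150 and 0.162 with DMSO and 0.0983, 0.104 and 0.105 with PD. The log2 ratio differed by -0.59. At 64.8% coding identity, these genes have no identical stretch over 17 bases.

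RPS27L, which is known as a p53 target, had 5.85, 5.53 and 5.25 FPKM with DMSO and 6.25, 6.39 and 6.40 FPKM with PD (log2 fold change 0.17, SE 0.051, adjusted p = 0.0246). Both RPS27L and RPS27 were higher with PD in the main test, but the call of RPS27L was lost without DMSO replicate 2 or 3 or PD replicate 2 or 3 (adjusted p from 0.0615 to 0.0726) and under upper quartile scaling (0.0601) and equal totals without the ribosomal protein genes (0.0937). The ratio of RPS27L to RPS27 was 0.0198, 0.0206 and 0.0184 with DMSO and 0.0169, 0.0181 and 0.0171 with PD. Of the 252 coding positions, 56 differ, and they are spread over the whole length, as the capitals show.
RPS27: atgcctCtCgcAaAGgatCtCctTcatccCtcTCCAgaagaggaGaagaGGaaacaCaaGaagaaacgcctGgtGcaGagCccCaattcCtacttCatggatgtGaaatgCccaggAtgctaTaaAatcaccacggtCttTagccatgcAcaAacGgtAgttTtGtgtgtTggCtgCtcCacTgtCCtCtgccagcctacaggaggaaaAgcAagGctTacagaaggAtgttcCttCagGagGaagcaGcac
RPS27L: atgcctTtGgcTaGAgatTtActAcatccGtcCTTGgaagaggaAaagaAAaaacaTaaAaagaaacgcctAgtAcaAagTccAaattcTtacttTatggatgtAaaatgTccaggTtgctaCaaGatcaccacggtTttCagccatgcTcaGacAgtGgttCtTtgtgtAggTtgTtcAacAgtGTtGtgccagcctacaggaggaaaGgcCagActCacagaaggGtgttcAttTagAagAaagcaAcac

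The remaining pairs had a core gene of low FPKM or ratios that overlapped. RPL36AL, at 94.6, 90.2 and 89.2 FPKM with DMSO and 72.7, 68.9 and 68.5 FPKM with PD, was lower (log2 fold change -0.38, SE 0.037, adjusted p = 0.000115). RPL26L1, at 34.5, 35.1 and 33.1 FPKM and 38.3, 36.5 and 34.6 FPKM, was not called (log2 fold change 0.089, SE 0.045, adjusted p = 0.13). The log2 ratios to RPL36A and RPL26 differed by 0.53 and 1.24, both above DMSO, with core genes under 5 FPKM. With the pseudogene fragments added to each gene, the difference of the limma voom estimates was -0.22 for RPL36AL against RPL36A, so that its direction turned, and 0.85 for RPL26L1 against RPL26. RPL7L1, a protein known for a role in building the large subunit, had 27.7, 29.2 and 29.3 FPKM and 24.1, 25.1 and 23.8 FPKM (log2 fold change -0.23, SE 0.039, adjusted p = 0.00168), and RPL7 had 223, 224 and 228 FPKM and 199, 196 and 197 FPKM (log2 fold change -0.19, SE 0.024, adjusted p = 0.000421). Their ratio overlapped between groups, with a difference of -0.049 on the log2 scale. RPL3L, a gene of heart and skeletal muscle, had at most 3 fragments in a library and was not tested.

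Each of the 6 ratios was compared by a two-sided exact permutation test over the 6 libraries, which can give no p below 0.10. This value was reached by 5 ratios (adjusted p = 0.12 over the 6 pairs), and RPL7L1 over RPL7 gave 0.20.

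**Figure D4:**
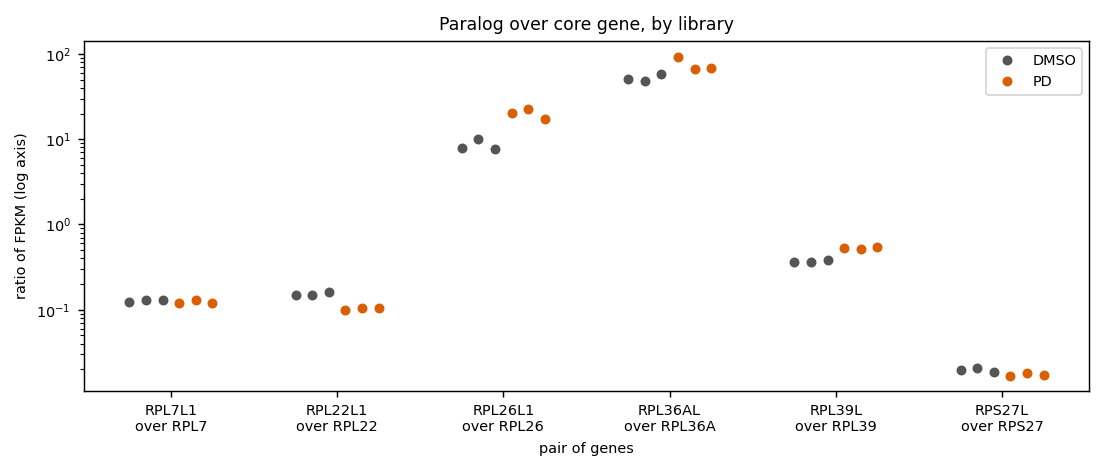
Ratio of paralog FPKM to the FPKM of its core gene (y axis, log scale) in each DMSO and PD library for the 6 pairs tested (x axis). The ratio RPL39L to RPL39 lies at 0.360 to 0.387 with DMSO and 0.513 to 0.546 with PD, whereas RPL7L1 to RPL7 overlaps.

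Ribosomal protein genes have many processed pseudogenes, copies of the mRNA inserted elsewhere in the genome, and reads that match both can be lost or counted on either. Among the rows of the table, 508 carried the name of a pseudogene of 71 of the members. These rows took 4.35% ± 0.0565 of the fragments of members and pseudogenes with DMSO and 4.46% ± 0.0448 with PD (SD, n = 3), with PD above DMSO. For 4 genes the pseudogenes held more fragments than the gene, with 96.1% for RPL17, 93.1% for RPS10, 91.1% for RPL36A and 67.2% for RPS28. RPL26 had 41.7%, and 13 genes had over 10%. RPS28 had 53.7 fragments per 1000000 of the library with DMSO and 61.2 with PD, and its pseudogenes had 105.5 ± 6.09 and 130.3 ± 4.67.

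Adding the pseudogene fragments to each gene ended no call. On whole fragments limma voom called 50 of the 83 genes, 16 higher and 34 lower. It called 62.7% of all genes tested in that fit, 34.4% higher and 28.3% lower. With the pseudogene fragments added, an alternative chosen after the data had been seen, limma voom called 53, 16 higher and 37 lower. In that fit 62.9% of all genes were called, 34.5% higher and 28.4% lower. The 50 were among the 53, the 3 gained were RPL17, RPL32 and RPS10, and none turned its sign. The sizes of 3 changes moved by more than 0.1. RPL36A went from -0.91 to -0.17 (adjusted p = 0.0357), RPL26 from -1.14 to -0.76, and RPL23A, which was not called either way, from -0.050 to 0.089. Of 27 genes with at least 10 fragments per 1000000 on pseudogenes, 25 had the same sign in the gene and in its pseudogenes.

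**Figure D5:**
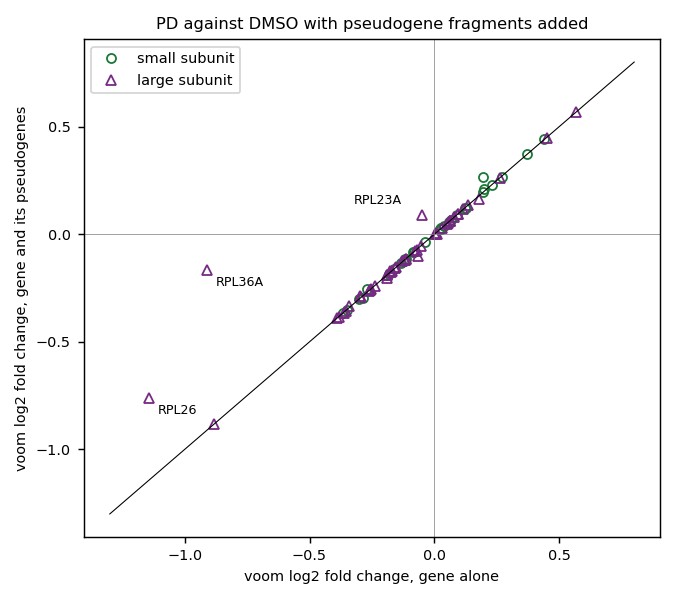
Log2 fold change by limma voom of each gene with the fragments of its pseudogenes added (y axis) against the gene alone (x axis), with circles for the small and triangles for the large subunit and a line of equality. All genes but RPL36A, RPL26 and RPL23A lie within 0.1 of the line.

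Counting could also have been affected by genes that share exons, and the sources used here do not state whether strand was used. RPL17 and RPS10 share 32.9% and 31.5% of their exon bases with genes on the same strand, among them their readthrough genes, and both were listed under 1 FPKM with overlapping groups. RPS2 shared 25.9% on the same strand. RPL10 shared 50.5%, RPL30 shared 40.8% and RPS28 shared 20.6% with genes on the opposite strand, and none of these 3 was called by limma on FPKM. Values of these 6 genes are uncertain. In all, 7 of the 77 core genes had a mean under 10 FPKM. Among the 74 genes at or above 10 FPKM, 13 (17.6%) were called higher and 28 (37.8%) lower. For all genes tested, whatever their level, these shares were 31.9% and 26.2%.

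Genes with a snoRNA between their start and end on the same strand were 28 of the 84. Whether each snoRNA lay in an intron was not checked. Of these 28, 46.4% were called by limma, against 58.1% of all genes tested. Over all genes tested, 31.9% were higher and 26.2% lower. Of the 9 in the small subunit, 4 were higher and 5 were not called by limma, with 2 of the 5 lower at an unadjusted p under 0.05 and 1 lower by voom, and the median of the 9 log2 fold changes was 0.092. Of the 19 in the large subunit, 1 was higher, 8 were lower and 10 were not called, with a median of -0.11. Genes without such a snoRNA gave 4 higher and 6 lower of 23 in the small subunit. In the large subunit they gave 5 higher and 17 lower of 32 tested. The hosts of 4 or 5 snoRNAs, a group chosen after the values were seen, included RPL4, RPL13A and RPL7A, which were lower, and RPL23A, which was not called. Of 11 snoRNA host genes with TOP starts that encode no ribosomal protein, limma called 8 lower and 0 higher, voom also called 8 lower and 0 higher, and 0 were higher at an unadjusted p under 0.05. Their median was -0.34, with TAF1D (17.4 ± 1.595 FPKM with DMSO and 11.1 ± 0.103 FPKM with PD), ZFAS1 (10.1 ± 0.925 FPKM with DMSO and 6.44 ± 0.580 FPKM with PD) and SNHG1 (76.9 ± 2.06 FPKM with DMSO and 52.5 ± 4.03 FPKM with PD) as the largest falls.

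Other mRNAs with TOP motifs and other translation genes gave the setting for these values. Of 16 translation factors and related proteins with TOP mRNAs, 4 were higher and 8 lower (median -0.19). The largest falls were those of HNRNPA1, an RNA-binding protein, with 237 ± 5.18 FPKM with DMSO and 143 ± 5.74 FPKM with PD (log2 fold change -0.73, SE 0.036, adjusted p = 6.92e-06), EEF1D, an exchange factor of elongation, with 15.3 ± 0.722 FPKM with DMSO and 10.2 ± 0.643 FPKM with PD, and EIF4B, a helper of the initiation helicase, with 98.4 ± 2.34 FPKM with DMSO and 68.2 ± 2.72 FPKM with PD. EEF2, the translocation factor, rose (log2 fold change 0.12, SE 0.029, adjusted p = 0.00847), and EEF1A1, the carrier of aminoacyl-tRNA, had a log2 fold change of -0.019 (adjusted p = 0.578). Among 20 further initiation, elongation and termination factors, 1 was higher and 12 were lower (median -0.22), with EIF5A at 136 ± 6.57 FPKM with DMSO and 89.5 ± 0.753 FPKM with PD, GSPT1 at 67.7 ± 1.58 FPKM with DMSO and 45.0 ± 1.22 FPKM with PD and EIF2S3 at 271 ± 8.54 FPKM with DMSO and 186 ± 4.99 FPKM with PD as the largest falls.

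Of 18 genes that control the translation of TOP mRNAs, 5 were higher and 10 lower (median -0.17). EIF4EBP2, a repressor of the cap-binding protein, had 14.2 ± 0.554 FPKM with DMSO and 28.8 ± 0.212 FPKM with PD (log2 fold change 0.97, SE 0.038, adjusted p = 3.39e-06). EIF4E, the cap-binding protein, had 3.599 ± 0.214 FPKM with DMSO and 2.11 ± 0.316 FPKM with PD (log2 fold change -0.57, SE 0.087, adjusted p = 0.0011). EIF4A1, the helicase, was listed at only 1.10 ± 0.139 FPKM with DMSO and 0.485 ± 0.0631 FPKM with PD. Shared exons were looked up for the ribosomal protein genes only, so the low values of EIF4A1 are uncertain. LARP1, the TOP-binding repressor, had 83.6 ± 1.75 FPKM with DMSO and 65.1 ± 0.815 FPKM with PD (log2 fold change -0.36, SE 0.029, adjusted p = 5.05e-05). Of 10 genes listed as ribosomal protein chaperones, 2 were higher and 5 lower (median -0.13). The largest changes were those of LTV1, BCCIP and NACA, the last also a member of the TOP list. LTV1 had 6.31 ± 0.698 FPKM with DMSO and 3.29 ± 0.289 FPKM with PD. BCCIP had 11.95 ± 0.115 FPKM with DMSO and 7.52 ± 0.573 FPKM with PD. NACA had 38.0 ± 0.850 FPKM with DMSO and 29.3 ± 0.853 FPKM with PD. These lists are shown beside the median of 0.012 and the 58.1% called over all genes tested, 31.9% higher and 26.2% lower.

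For comparison with mRNAs of like abundance, of the 785 other genes that averaged 50 FPKM or more, 75.9% were called, 288 higher and 308 lower, against 36 of the 63 ribosomal protein genes at that level (57.1%), 12 higher and 24 lower. Whether these shares differ beyond chance was not tested, since genes are not replicates. In absolute size, the ratio of group means of the ribosomal protein genes ran from 0.452 (RPL26) to 1.48 (RPL39L).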

How the data were processed

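RNA-seq of 6 samples, 3 treated with PD and 3 with DMSO, was analysed. Per the labels and the study's methods, mRNA was purified on poly-T beads and sequenced from both ends. The authors used HISAT2 for alignment to hg38 and HTSeq 0.6.0 for counting, and deposited FPKM, which are normalized to gene length and library total. The study's methods give a lower dose of PD than the labels. The annotation release and the strand setting are not given in the sources used here. All value columns were assigned to samples, and 28161 of 28563 genes had a symbol in GENCODE release 44.

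The members and all gene lists were chosen with earlier results of these data known. PD was compared with DMSO in R 4.3.3 by limma 3.58.1 (trended prior variance, no covariates) on log2(FPKM + 1), over genes whose mean reached 0.5 FPKM. On this scale the change of a gene near or below 1 FPKM is compressed. The study's own test, DESeq2 on counts, was not used because the table holds FPKM, and it was also not run on the whole fragments described next. Whole fragments were recovered for all 28563 genes as multiples of the smallest step, within 0.001 of a whole number, and were used in limma voom for genes with at least 10 fragments in 3 or more libraries. Paralog ratios were compared by exact permutation tests in scipy 1.17.1. The limma test on log2(FPKM + 1) and limma voom were checked on simulated data.

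Values by library were given by rule for the 5 largest rises and falls, the 3 highest genes of each subunit, paralog pairs, stalk genes, RPSA, RPS6, RPL5, RPL11, RPS19, FAU, RACK1 and up to 3 called genes of each other list. The other genes named (among them RPL14, RPL13A, RPL34, RPL8, RPL41, RPL12, RPS3, RPS4X, RPS7, RPS14, RPS27A, LARP1, EEF1A1 and EEF2) were picked after their values had been seen. Some genes that the rule names, and some of those tested, are not reported here by name. Replicates of a group differed by more than sampling noise (chi-square per gene of 2.22 to 3.55), so that none was counted as a copy of another. Alternatives were another pseudocount (0.1), no filter on FPKM, other scalings, voom, voom with pseudogene fragments added and leaving out each library.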

Additional observations from a re-analysis of the deposited data

How the results depend on the processing

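The median log2 fold change of all ribosomal protein genes, -0.076 in the main setting, was -0.11 with median-of-ratios scaling, -0.12 with upper quartile scaling and -0.14 with equal totals without these genes, and ran from -0.10 to -0.043 without 1 library. In the same 3 scalings the small subunit median was -0.0093, -0.021 and -0.037, and the large subunit median was -0.15, -0.16 and -0.18. Without 1 library the large subunit median ran from -0.16 (without DMSO replicate 2) to -0.095, and the small subunit median from -0.0028 to 0.035. The median over all genes was -0.015, -0.024 and -0.037 in the 3 scalings. The sign of 16 of the 83 genes turned in at least 1 setting, and 0 of the 16 were called in the main test. Of the 47 genes named by rule these were RPS18 (-0.0026 to 0.045 without 1 library, lowest without DMSO replicate 2, and -0.0081, -0.020 and -0.036 in the 3 scalings), RPS19 (-0.0030 to 0.056, -0.010, -0.022 and -0.038 likewise), RPS6 (-0.012, -0.024 and -0.040 in the 3 scalings), RPL10 (-0.0020 with equal totals) and RPL39 (-0.015 with equal totals). Counts of called genes ran from 38 without a filter on FPKM to 53, all within 1.5 times the main 45, and from 40 to 48 without 1 library. Of 658 values for 47 named genes under 14 alternatives, 619 kept their direction and side of the threshold, 20 lost a call, 6 gained one and 13 turned their sign. The causes were not tested.

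Same-numbered DMSO and PD libraries did not deviate together (correlations of -0.027, -0.0046 and 0.090), so the numbers do not pair the samples. With the replicate block 42 genes were called, 13 higher and 29 lower, and 2 of the 47 named genes lost their call. Not every library correlated best with its own number.

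Depth limits the genes under 10 FPKM, of which RPL17 and RPS10 had at most 35 fragments in a library. Members of at least 10 FPKM had 657 fragments or more in every library. FPKM are relative, and the scalings above move all genes together, so they could hardly change the difference of the subunit medians. Over all settings that difference ran from 0.13 to 0.15. Intervals cover the spread between dishes of 1 cell line at 1 dose and 1 time.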
